A study of Mus musculus with 6 samples.

Results

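The 10 genes whose products end the light response of photoreceptors and set its calcium feedback were followed in whole retina by poly-A RNA sequencing. The rule picks them by symbol and uses no measured value, although they were chosen with earlier results of these data known. All 10 were found among the 25124 gene models of the deposited count table. The members are the guanylate cyclases Gucy2e and Gucy2f, the cyclase activators Guca1a and Guca1b, recoverin (Rcvrn), rhodopsin kinase (Grk1), rod arrestin (Sag), and the RGS9 complex of Rgs9, Rgs9bp and Gnb5. All 10 passed the filter on low counts, and each had at least 3329 counts in every library.

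The study compared retinas of mice carrying the C234W substitution in Elovl2 (C234W, 3 libraries) with retinas of wild-type mice (WT, 3 libraries). Elovl2 is an elongase on the route to docosahexaenoic acid, a lipid abundant in photoreceptor discs. Both groups were C57BL/6J animals aged 4 months, and each library was made from fresh whole retina. The labels do not state whether C234W animals were homozygous, the sex of the animals, or whether each library came from its own animal.

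In the dark, cyclic GMP holds the cation channels of the outer segment open and calcium enters with the current. Light activates rhodopsin, transducin and phosphodiesterase, cyclic GMP is destroyed, the channels close and calcium falls. Recovery needs each active step to be shut off: rhodopsin kinase phosphorylates rhodopsin and arrestin caps it, while the RGS9 complex speeds the hydrolysis of GTP on transducin. The fall in calcium also frees rhodopsin kinase from recoverin and lets the activator proteins stimulate guanylate cyclase, which restores cyclic GMP.

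In C234W retinas, Guca1a fell to 0.506 of its WT level, and it was the 1 member of 10 to pass the test (adjusted p under 0.05 over all genes, from the quasi-likelihood test of edgeR). Over the 14685 genes tested, 1.82% passed in either direction and 1.53% passed as lower. The smallest adjusted p of all these genes was 0.0469, so every gene that passed lay just under the threshold. Guca1b, Rcvrn and Sag also had C234W libraries that were all below the WT libraries, with log2 fold changes between -0.93 and -0.75, but did not pass. The other 6 members had overlapping groups and log2 fold changes between -0.08 and 0.29. Whether Guca1a passed depended on the libraries and the scaling used, and the 4 lower members were also those with the shortest transcripts.

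The promoters of 4 members are shown because they cover both patterns: Guca1a and Sag, whose groups did not overlap, and Gucy2e and Grk1, whose groups did. Each runs from 250 bases before to 50 bases after the start of the gene, on GRCm38.p6 from RefSeq, 5′ to 3′ on the strand of the gene. Guca1a is chr17:47400557-47400856 on the minus strand, Sag is chr1:87803430-87803729 on the plus strand, Gucy2e is chr11:69236973-69237272 on the minus strand and Grk1 is chr8:13404831-13405130 on the plus strand. Capitals mark TAATCC or its reverse complement, the core bound by the photoreceptor factors CRX and OTX2.
Guca1a: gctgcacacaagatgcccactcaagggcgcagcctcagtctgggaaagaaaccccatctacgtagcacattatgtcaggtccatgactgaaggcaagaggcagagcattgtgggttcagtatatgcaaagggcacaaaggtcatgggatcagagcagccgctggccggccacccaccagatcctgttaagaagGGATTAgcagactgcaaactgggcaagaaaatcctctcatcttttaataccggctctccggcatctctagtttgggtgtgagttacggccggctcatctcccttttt
Sag: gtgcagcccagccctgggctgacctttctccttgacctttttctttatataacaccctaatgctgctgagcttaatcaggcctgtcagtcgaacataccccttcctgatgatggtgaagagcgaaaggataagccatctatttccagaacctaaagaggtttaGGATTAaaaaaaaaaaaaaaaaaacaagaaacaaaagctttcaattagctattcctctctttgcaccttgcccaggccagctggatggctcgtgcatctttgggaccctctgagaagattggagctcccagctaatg
Gucy2e: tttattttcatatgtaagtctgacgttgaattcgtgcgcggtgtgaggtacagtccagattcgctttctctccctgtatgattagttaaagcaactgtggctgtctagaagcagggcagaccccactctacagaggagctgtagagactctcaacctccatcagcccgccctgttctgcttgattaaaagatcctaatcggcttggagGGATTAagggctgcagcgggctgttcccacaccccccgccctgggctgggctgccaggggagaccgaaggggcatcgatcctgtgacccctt
Grk1: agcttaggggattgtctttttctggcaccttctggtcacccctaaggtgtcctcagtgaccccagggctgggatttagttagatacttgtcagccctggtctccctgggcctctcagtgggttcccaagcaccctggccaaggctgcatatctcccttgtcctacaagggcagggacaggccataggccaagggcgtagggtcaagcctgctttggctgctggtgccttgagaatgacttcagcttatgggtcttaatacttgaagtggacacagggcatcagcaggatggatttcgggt

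Promoters were found for 7 of 10 members; those of Guca1b, Rcvrn and Rgs9bp are not shown. TAATCC, searched on both strands, was present in 5 of the 7 (Guca1a, Sag, Gucy2e, Gucy2f and Gnb5), against 7.06% of 32851 promoters of the same length. In Guca1a it lay at -57 to -52 relative to the start, in Gucy2e at -42 to -37 and in Sag at -87 to -82. It was thus in Guca1a and Sag, whose groups did not overlap, and in Gucy2e, Gucy2f and Gnb5, whose groups overlapped. TATAAA was in 3 of 7 (Sag, Gnb5 and Rgs9; 13.6% of all promoters), and TGCTGA, part of the site of the rod factor NRL, was in 3 of 7 (Sag, Grk1 and Rgs9; 19.5% of all). No 2 matches overlapped, and a match describes sequence and is not a measured site.

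Libraries held 15804645.5 to 19298613 counts in genes in C234W and 14184093 to 18710329 in WT. The members took 1.72 to 2.07% of these counts in C234W and 2.05 to 2.45% in WT. The FS columns are assigned to C234W because 3 columns are named WT and the FS columns are those that remain, and the direction of each fold change rests on this. The Elovl2 transcript was at 82.0, 90.1 and 116 CPM (counts scaled to the size of the library) in C234W and 142, 138 and 136 CPM in WT (log2 fold change -0.53, SE 0.166, edgeR adjusted p = 0.0991); a substitution need not alter the transcript, so this does not check the labels. WT1A stood apart from the other WT libraries: its log2 CPM over genes had a Pearson r of 0.961 with WT2A and 0.956 with WT2B, against 0.964 to 0.972 with the C234W libraries. The 8 rod markers summed to 59652 to 82583 CPM in C234W and to 92325 to 144838 CPM in WT, and none of them was at 0. In bulk tissue, fewer rods and less RNA per rod cannot be told apart.

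The activators of guanylate cyclase, which sense calcium through EF hands, were lower in every C234W library than in every WT library. Guca1a (NM_008189, mm10, chromosome 17, 47394557 to 47400606, minus strand, 4 exons) encodes the first of the pair. Its TMM-scaled level was 1121, 1027 and 1363 CPM in C234W libraries FS3A, FS3B and FS5A, and 2628, 2017 and 2297 CPM in WT libraries WT1A, WT2A and WT2B. The highest C234W library was below the lowest WT library, and WT1A was the highest of all. Guca1a fell to 1170 ± 173 CPM in C234W, against 2314 ± 306 CPM in WT (SD, n = 3 each), a log2 fold change of -0.98 (SE 0.193, 95% interval -1.42 to -0.55, edgeR adjusted p = 0.0475). Over 20 alternatives the adjusted p ran from 7.94e-05 with DESeq2 to 0.370 with libraries of one name number summed. The log2 fold change was negative in all 20, although those that change only the threshold or the robust dispersion keep its main value. Guca1a passed in edgeR without WT1A (log2 fold change -0.88, adjusted p = 0.0188) and not without any other single library (adjusted p = 0.0814 to 0.231). Here and below, the fit without WT1A leaves WT2A and WT2B as the WT group, and these share a name number.

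Guca1b (NM_146079), the partner activator, lies 1589 bases from Guca1a on the plus strand, from 47385393 to 47392967, so the gene ends face each other. It was at 1474.5, 1233 and 1883 CPM in C234W and at 3518, 2204 and 2429 CPM in WT. Again the groups did not overlap, and WT1A was far above WT2A and WT2B. The log2 fold change was -0.83 (SE 0.244, 95% interval -1.38 to -0.28, edgeR adjusted p = 0.0874), which did not pass; without WT1A it was -0.59 and still did not pass (adjusted p = 0.0781). The ratio of Guca1a to Guca1b within a library, which needs no scaling between libraries, averaged -0.38 ± 0.103 on the log2 scale in C234W and -0.21 ± 0.185 in WT (SD, n = 3 each). The groups overlapped (exact two-sided permutation test, p = 0.3, adjusted p = 0.5 over 5 ratios, where the design allows no p below 0.1). A difference between the activators in their response was not detectable with these libraries.

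**Figure D1:**
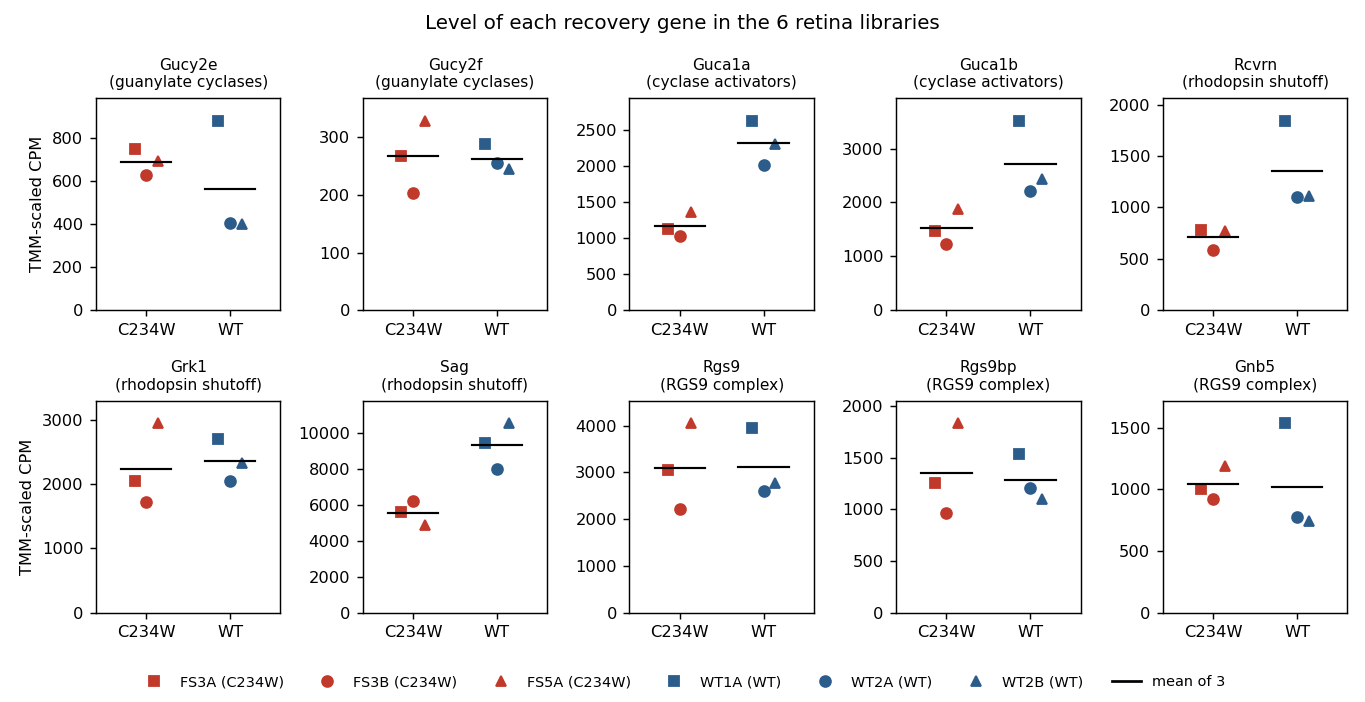
TMM-scaled CPM (vertical axes, each starting at 0) of the 10 genes in the 3 C234W libraries (red, left) and the 3 WT libraries (blue, right), with the mean of 3 as a bar. For Guca1a, Guca1b, Rcvrn and Sag every red point lies below every blue point, whereas the other 6 genes overlap; Guca1a spans 1027 to 1363 CPM in C234W and 2017 to 2628 CPM in WT.

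Neither guanylate cyclase passed the test. Gucy2e (NM_008192, chromosome 11, 69218117 to 69237022, minus strand, 19 exons) encodes the cyclase of rods and cones, whose loss in mice leads to the loss of cones. It was at 749, 626 and 692 CPM in C234W and at 879, 406 and 400.4 CPM in WT. WT1A was above all C234W libraries, and WT2A and WT2B were below all of them. With the 6 libraries the log2 fold change was 0.29 (SE 0.298, 95% interval -0.38 to 0.97, edgeR adjusted p = 0.558). Without WT1A it was 0.78 and passed (adjusted p = 0.0173), and over 20 alternatives the adjusted p ran from 0.0173 to 0.996.

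Gucy2f (NM_001007576, chromosome X, 142079289 to 142196936, minus strand, 20 exons) encodes the other photoreceptor cyclase, found mainly in rods. It was at 268, 204 and 329 CPM in C234W and at 288, 255 and 245 CPM in WT. The C234W libraries lay on both sides of the WT libraries, at a log2 fold change of 0.02 (SE 0.193, 95% interval -0.41 to 0.46, edgeR adjusted p = 0.956). The log2 ratio of Gucy2e to Gucy2f was 1.48, 1.62 and 1.07 in C234W and 1.61, 0.669 and 0.709 in WT, with groups that overlapped (exact two-sided permutation test, p = 0.3, adjusted p = 0.5).

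Of the genes that shut off rhodopsin, Sag and Rcvrn had groups that did not overlap and Grk1 had groups that did. Sag (NM_009118, chromosome 1, 87803680 to 87845157, plus strand, 16 exons) was at 5584, 6223 and 4855 CPM in C234W and 9409.85, 8000.03 and 10525 CPM in WT. The groups did not overlap, and WT1A was here between the other WT libraries. The difference came to a log2 fold change of -0.75 (SE 0.210, 95% interval -1.22 to -0.27, edgeR adjusted p = 0.0796). It passed without WT1A (log2 fold change -0.73, adjusted p = 0.0414) and by DESeq2 (adjusted p = 0.00285); the adjusted p reached 0.380 over 20 alternatives.

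Rcvrn (NM_009038, chromosome 11, 67695326 to 67703355, plus strand, 3 exons), the calcium-bound brake on rhodopsin kinase, was at 776, 580.5 and 769 CPM in C234W and at 1843, 1101 and 1111 CPM in WT. No C234W library reached a WT library, and WT1A was again far above the other WT libraries. This gave a log2 fold change of -0.93 (SE 0.243, 95% interval -1.48 to -0.38, edgeR adjusted p = 0.0687). Without WT1A the log2 fold change was -0.64 and passed (adjusted p = 0.0418), and it passed with the letter that ends the column names as a block (adjusted p = 0.0468). Over 20 alternatives the adjusted p ran from 0.00531 to 0.370. Glp2r lies on the opposite strand across Rcvrn; the counts are strand-specific, per the file headers.

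Grk1 (NM_011881, chromosome 8, 13405081 to 13421949, plus strand, 7 exons), the kinase that recoverin restrains, was at 2051, 1724 and 2943 CPM in C234W and at 2698, 2053 and 2331 CPM in WT. The C234W libraries spanned the WT range, with FS5A the highest of the 6. The log2 fold change was -0.08 (SE 0.234, 95% interval -0.61 to 0.45, edgeR adjusted p = 0.865), and it was positive with total-count scaling (0.106). The log2 ratio of Sag to Grk1 was 1.44, 1.85 and 0.722 in C234W and 1.80, 1.96 and 2.17 in WT. These groups overlapped by 1 pair of libraries, FS3B above WT1A. The difference was -0.64 (exact two-sided permutation test, p = 0.2, adjusted p = 0.5). No p below 0.1 was possible with these libraries, so no ratio could pass the threshold.

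No gene of the RGS9 complex passed the test, and all 3 had overlapping groups. Rgs9 (NM_001165934, chromosome 11, 109229856 to 109298181, minus strand), the GTPase-accelerating subunit, was at 3046, 2214 and 4047.5 CPM in C234W and at 3940.45, 2612 and 2767 CPM in WT. The log2 fold change was -0.00 (SE 0.266, 95% interval -0.60 to 0.60, edgeR adjusted p = 0.997); its sign differed among scalings, at 0.00606 with RLE, 0.0151 with upper-quartile and 0.186 with total-count scaling. Rgs9bp (NM_145840, chromosome 7, 35578996 to 35585582, minus strand, 1 exon), the membrane anchor, was at 1258, 962 and 1832 CPM in C234W and at 1533, 1209.8 and 1101.6 CPM in WT (log2 fold change 0.08, SE 0.254, 95% interval -0.50 to 0.65, edgeR adjusted p = 0.879). For both genes FS5A was the highest and FS3B the lowest of the 6 libraries.

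Gnb5 (NM_010313, chromosome 9, 75306288 to 75345923, plus strand, 13 exons), the G protein beta subunit bound to Rgs9, was at 1005, 925 and 1189 CPM in C234W and at 1535, 775 and 743 CPM in WT. As for Gucy2e, WT1A was above all C234W libraries and WT2A and WT2B were below them. The log2 fold change was 0.03 (SE 0.285, 95% interval -0.61 to 0.67, edgeR adjusted p = 0.960), and 0.46 without WT1A (adjusted p = 0.0894). The intervals of these 3 genes reached between -0.61 and 0.67, and differences within them were not detectable with these libraries. The log2 ratio of Rgs9 to Rgs9bp was the steadiest of the 5 ratios, at 1.21 ± 0.0661 in C234W and 1.27 ± 0.137 in WT (SD, n = 3 each; exact two-sided permutation test, p = 0.6, adjusted p = 0.6). That of Rgs9 to Gnb5 was 1.54 ± 0.259 in C234W and 1.67 ± 0.278 in WT (SD, n = 3 each; exact two-sided permutation test, p = 0.6, adjusted p = 0.6).

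**Figure D2:**
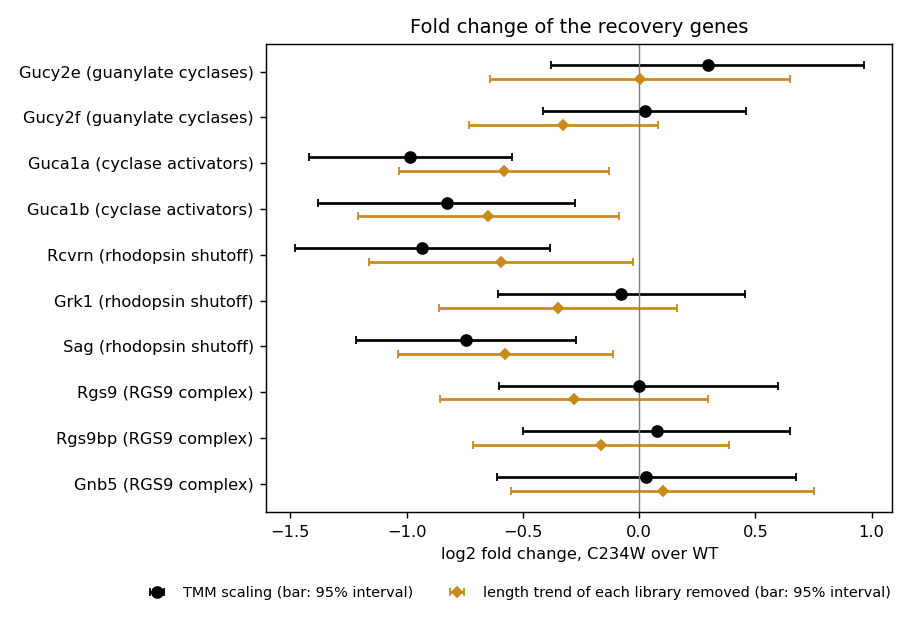
Log2 fold change of C234W over WT (horizontal axis) for the 10 genes, with TMM scaling (black circles) and with the length trend removed (gold diamonds); bars are 95% intervals. Guca1a lies at -0.98 with TMM scaling and at -0.58 with the length trend removed, and the cyclase and RGS9 complex genes lie near or right of 0 with TMM scaling.

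Counted together, 6 of 10 members had a negative log2 fold change and 4 a positive one, with a median of -0.04, against 0.02 over all genes tested. At an unadjusted p under 0.05 (edgeR), 4 members were lower and 0 higher, where 13.7% of all genes tested were lower, 12.2% higher and 25.9% either. Groups did not overlap for 4 members, all lower, against 16.4% of all genes for lower, 12.6% for higher and 29.1% for either direction. DESeq2 called the same 4 members, Guca1a, Guca1b, Rcvrn and Sag, all lower, where it called 11.9% of all genes, 7.24% as lower. Scaling to total counts moved the median of all genes to 0.21, and Guca1a, at a log2 fold change of -0.80, then did not pass (edgeR adjusted p = 0.0501, against 7.94e-05 to 0.370 over its alternatives).

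Set side by side, the libraries showed that the members did not vary as a single unit. Guca1a, Guca1b, Rcvrn and Sag were above their mean over 6 libraries in each WT library and below it in each C234W library. Among the rest, Grk1, Rgs9, Rgs9bp and Gucy2f were all highest in FS5A and all lowest in FS3B, 2 libraries of the same genotype. Their deviations were 0.33 to 0.51 log2 units in FS5A and -0.45 to -0.36 in FS3B. Gucy2e and Gnb5 were instead lowest in WT2A and WT2B, with deviations of -0.58 to -0.36, and highest in WT1A, with 0.55 and 0.62.

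**Figure D3:**
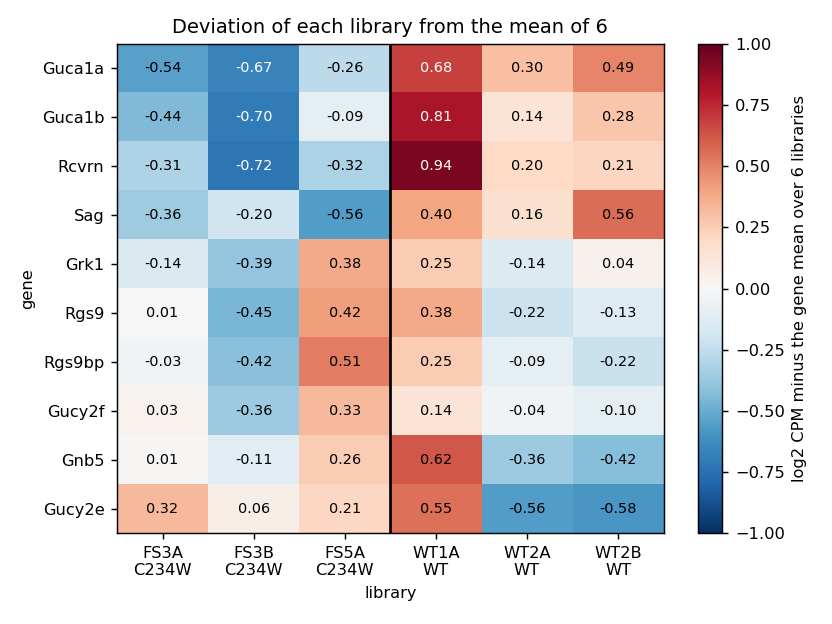
Log2 CPM of each gene (rows) in each library (columns, C234W left of the line and WT right) minus the gene's mean over the 6 libraries; red is above the mean and blue below. The top 4 rows are blue in all C234W libraries and red in all WT libraries, while Gucy2e and Gnb5 are red in WT1A (0.55 and 0.62) and blue in WT2A and WT2B.

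Transcript length moved with these differences. Guca1a, Rcvrn, Guca1b and Sag, the 4 members with non-overlapping groups, had transcripts of 890, 1057, 1662 and 1700 bases in the deposited gene models, the shortest of the 10. Gnb5 followed at 2234 bases, and Rgs9bp, Grk1, Rgs9, Gucy2e and Gucy2f had 6584, 7420, 7610, 8310 and 9976 bases. Across the 10 members, which are not replicates, the Pearson r of log2 length with log2 fold change was 0.895. With all genes split by length into 5 equal bins, the median log2 fold change was -0.34 among genes of at most 1671 bases, a bin with 3 members. It was 0.28 among genes of at least 4985 bases, a bin with 5 members.

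With the length trend of each library removed, 8 of 10 members had a negative log2 fold change and the median over the members was -0.34, against 0.00 over all genes. The 4 lower members then had -0.58 for Guca1a, -0.65 for Guca1b, -0.59 for Rcvrn and -0.58 for Sag, and none passed in edgeR (adjusted p = 0.174 to 0.236), with these 4 at an unadjusted p under 0.05, against 19.7% of all genes in either direction and 11.1% lower. Gucy2f moved to -0.33, Grk1 to -0.35 and Rgs9 to -0.28, while Gucy2e stood at 0.00 and Gnb5 at 0.10. The part of transcript length in the difference between the members was not tested. For Rgs9 the GENCODE transcript with the same RefSeq identifier holds 2313 exonic bases, against 7610 in the deposited model, so its place in this order depends on the gene model.

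**Figure D4:**
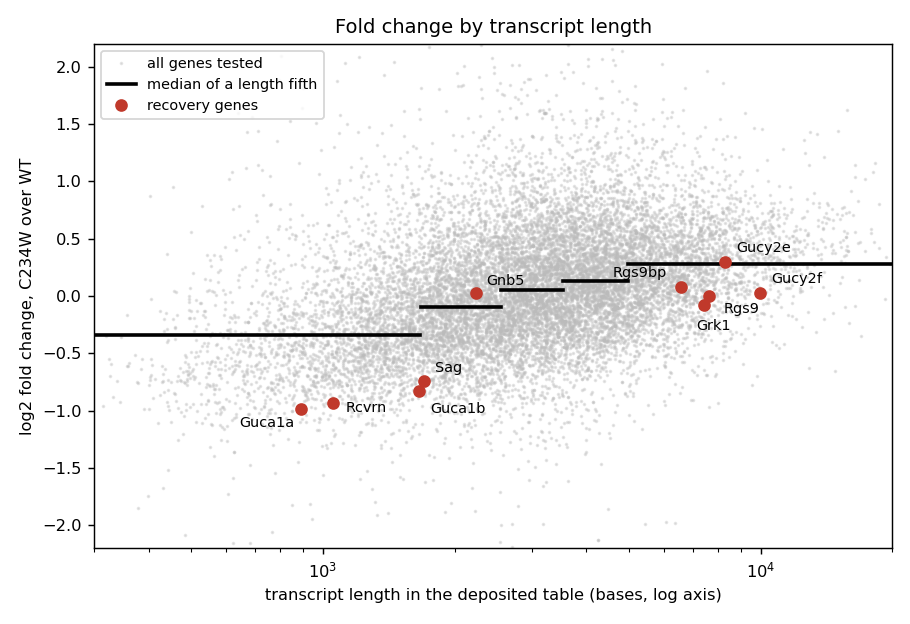
Log2 fold change of C234W over WT against transcript length in the deposited table (log axis) for all genes tested (grey) and the 10 genes (red), with the median of each of 5 length bins as a black line; genes outside the plotted range are not drawn. The 4 lower genes lie below the lines at -0.34 and -0.10, Gucy2e lies beside the line at 0.28, and the other 4 long genes lie below that line.

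Rod markers were lower in part: 4 of 8 had groups that did not overlap, all lower in C234W, against 16.4% of all genes. The median log2 fold change of the 8 was -0.66. It was -0.03 for Pde6b and -0.17 for Cnga1, whose groups overlapped, as did those of Nrl and Nr2e3. None of the 8 passed in edgeR. At an unadjusted p under 0.05 in edgeR 4 were lower, against 13.7% of all genes. Gnat1 and Prph2 were among the rod markers that DESeq2 called. The mean log2 CPM of the 8 rod markers was 11.56, 11.46 and 11.98 in C234W and 12.69, 11.9955 and 12.07 in WT, a difference of -0.58. The level of each member relative to this mean was examined after its values were seen. On this relative log2 scale Guca1a was at -1.43, -1.46 and -1.57 in C234W and at -1.33, -1.02 and -0.90 in WT, a difference of -0.40 with groups that did not overlap. Guca1b and Rcvrn also lay lower without overlap, with differences of -0.24 and -0.32, as did 0.197% of all genes tested. Sag overlapped between the groups on this scale (difference -0.16).

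Relative to rod markers, the other 6 members lay higher in C234W without overlap, with differences of 0.48 for Grk1, 0.56 for Rgs9, 0.58 for Gucy2f, 0.62 for Rgs9bp, 0.69 for Gnb5 and 0.98 for Gucy2e. So did 40.4% of all genes tested, and 40.6% did not overlap in either direction. The part of the rod markers in the members' differences was not tested. The summed level of the 8 cone markers was 939 to 1340 CPM in C234W and 1231 to 1381 CPM in WT, and overlapped. Their log2 fold changes differed in sign. They were -1.32 for Pde6h, -0.95 for Arr3, -0.61 for Gngt2, -0.22 for Opn1mw and -0.12 for Pde6c. For Gnat2, Cnga3 and Opn1sw they were 0.35, 0.37 and 0.44. Pde6h passed in edgeR, against 1.82% of all genes tested. Groups of Pde6h and Gngt2 did not overlap, both lower, against 16.4% of all genes. The 8 bipolar cell markers summed to 1045 to 1145 CPM in C234W and 730.2 to 875 CPM in WT, without overlap. The 7 pigment epithelium markers summed to 105 to 157 CPM in C234W and 72.9 to 731 CPM in WT, with the highest value in WT1A. The 6 erythrocyte markers summed to 58.4 to 80.4 CPM in C234W and 117 to 222 CPM in WT, without overlap. Gene models of Hbb-b1 and Hbb-bs share most of their span, as do those of Hba-a1 and Hba-a2, with near-equal counts. The erythrocyte sum may thus hold the same tags more than 1 time. The 4 endothelium markers summed to 53.3 to 62.4 CPM in C234W and 28.2 to 39.7 CPM in WT, also without overlap. The part of these lists in the members' differences was not tested.

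Leaving out a library changed which members passed, while the log2 fold change of Guca1a stayed between -1.11 and -0.88. Without WT1A, 4 members passed: Guca1a, Rcvrn and Sag were lower and Gucy2e was higher. The WT group of that fit was WT2A and WT2B, which share a name number and had the highest Pearson r of any pair (0.983). Whether they came from the same animal is not stated, so the p-values of that fit may measure technical spread. Over all genes, 2771 (18.5%) passed without WT1A, 9.55% as lower and 8.93% as higher. Without any other library 0 members passed in edgeR, and over all genes 0 to 7 passed. The 4 lower members were at an unadjusted p under 0.05 in each of these fits. Over all genes, that share was 16% (9.2% lower) without WT2A, 14.9% (8.77% lower) without WT2B, 16.5% (9.65% lower) without FS3A, 24.9% (12.4% lower) without FS3B and 22.3% (11.8% lower) without FS5A. With the letter of the column names as a block, Guca1a and Rcvrn passed in edgeR, against 4.8% of all genes, 3.11% as lower.

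**Figure D5:**
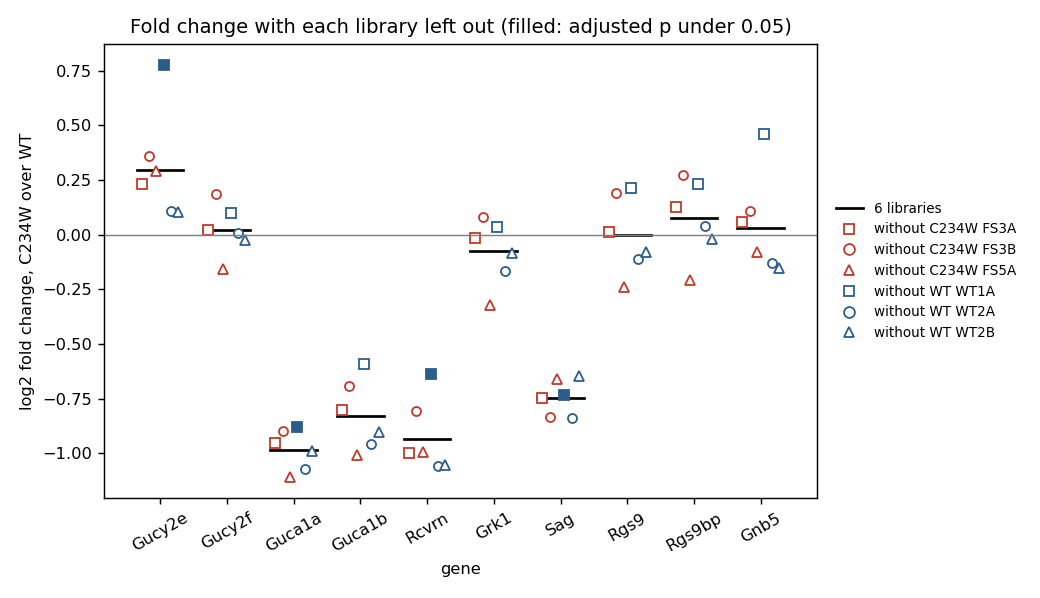
Log2 fold change of C234W over WT (vertical axis) for each gene with all 6 libraries (black line) and with 1 library left out (red symbols for a C234W library, blue for a WT library); filled symbols passed the threshold. The values for Guca1a stay between -1.11 and -0.88, and filled symbols occur without WT1A, where Gucy2e reaches 0.78.

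Per base of transcript, the members covered a wide range of levels. In C234W, Sag had 3267 ± 403 CPM per kilobase, Guca1a 1315 ± 195, Guca1b 921 ± 198 and Rcvrn 670.1 ± 105 (SD, n = 3). In WT, these were 5477 ± 744 for Sag, 2600.04 ± 343 for Guca1a, 1635 ± 423 for Guca1b and 1279 ± 403 for Rcvrn (SD, n = 3). With the lengths of the deposited models, the order of the 10 genes was the same in both genotypes: Sag, Guca1a, Guca1b, Rcvrn, Gnb5, Rgs9, Grk1, Rgs9bp, Gucy2e and Gucy2f. The ranges of Gnb5 and Rgs9 overlapped in both genotypes, as did those of Rgs9 and Grk1. Grk1 and Rgs9bp overlapped in C234W, and Guca1b and Rcvrn overlapped in WT.

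The low end was held by the cyclases. Gucy2e had 82.9 ± 7.45 CPM per kilobase in C234W and 67.6 ± 33.1 in WT, and Gucy2f had 26.8 ± 6.26 in C234W and 26.3 ± 2.26 in WT (SD, n = 3 each). The order depends on the length used for Rgs9: over the 2313 bases of its GENCODE transcript it had 1341 ± 397 CPM per kilobase in C234W and 1343 ± 314 in WT (SD, n = 3 each). That put its mean at rank 2 in C234W and at rank 4 in WT. Its range overlapped those of Guca1a and Guca1b in C234W and those of Guca1b and Rcvrn in WT. A difference in order between the genotypes was thus not shown.

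Among 24 other genes of the activation pathway, the channels and the disc, in edgeR 3 fell, 0 rose and 21 did not pass. Over all genes tested, 1.53% passed as lower and 0.293% as higher. The median log2 fold change of the 24 was -0.36 (0.02 over all genes), and -0.32 with the length trend removed. Unc119, a chaperone of acylated transducin, fell to 1597, 1594 and 1983 CPM in C234W, against 3575, 3466 and 3601 CPM in WT (log2 fold change -1.04, edgeR adjusted p = 0.0469). Pde6g, the inhibitory subunit of rod phosphodiesterase and a partner of the RGS9 complex, fell to 1780.3, 1706 and 2061 CPM in C234W, against 4703, 3083 and 3638 CPM in WT (log2 fold change -1.04, adjusted p = 0.0491 in edgeR). Pde6g did not pass with RLE, upper-quartile or total-count scaling (adjusted p = 0.050015, 0.0507 and 0.0501), nor with no robust dispersion or the earlier dispersion method of edgeR (adjusted p = 0.0577 and 0.0514, within 0.000105 to 0.370 over 20 alternatives). Its cone counterpart Pde6h fell to 115, 95.05 and 90.4 CPM in C234W, against 172, 282 and 296 CPM in WT (log2 fold change -1.32, edgeR adjusted p = 0.0469). Like Guca1a, these have short transcripts, of 1375, 913 and 552 bases, and none passed in edgeR with the length trend removed (adjusted p = 0.122, 0.174 and 0.126).

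Of 32 further genes of recovery and feedback (paralogues of the members, calmodulins, neuronal calcium sensors and enzymes of guanine nucleotide supply), 1 fell, 0 rose and 31 did not pass. Over all genes tested, 1.82% passed in either direction and 1.53% as lower. The median log2 fold change of the 32 was 0.03. The gene that fell was Guk1, guanylate kinase, which returns GMP towards GTP. It was at 219, 217 and 239 CPM in C234W and 396, 361 and 390.2 CPM in WT, without overlap (log2 fold change -0.77, SE 0.142, edgeR adjusted p = 0.0469; -0.42 and adjusted p = 0.170 with the length trend removed). Each of the 4 genes past the threshold in these lists had an adjusted p that reached 0.370 over 20 alternatives, with libraries of one name number summed. Each passed without WT1A (adjusted p = 0.0126 to 0.0178) and not without any other single library (adjusted p = 0.0814 to 0.231).

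Cone arrestin and the cyclase regulator Rd3 both depended on WT1A. Arr3, which caps cone opsins as Sag caps rhodopsin, was at 140.3, 96.8 and 82.8 CPM in C234W and at 117, 292 and 207 CPM in WT. WT1A lay within the C234W range, and the log2 fold change of -0.95 did not pass (SE 0.321, edgeR adjusted p = 0.119; adjusted p = 0.0192 without WT1A). Rd3, which carries guanylate cyclase to the outer segment and holds it inactive on the way, was at 267, 215 and 153 CPM in C234W and at 245, 53.8 and 53.3 CPM in WT. WT1A lay within the C234W range and WT2A and WT2B lay below all C234W libraries; the log2 fold change was 0.85 (SE 0.585, edgeR adjusted p = 0.388) and 1.99 without WT1A (adjusted p = 0.0126).

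The 5 genes outside the members whose log2 CPM was most like that of Guca1a over the 6 libraries were taken from 9721 genes with a mean of at least 10 CPM. They were Pde6d, a chaperone of prenylated proteins (Pearson r 0.9997), Prph2, a protein of the disc rim (0.9965), Sar1b, a GTPase of transport vesicles (0.9953), Arl3, a GTPase that releases cargo of such chaperones (0.9952), and Gpr180 (0.9951). The 6 points share 2 genotypes and the ranking took the highest of many values, so these r describe likeness only. Arl3 fell to 184, 177 and 205 CPM in C234W, against 386, 299.7 and 329.9 CPM in WT (log2 fold change -0.84, SE 0.159, edgeR adjusted p = 0.0469; 0.000271 to 0.370 over 20 alternatives), and the other 4 did not pass (adjusted p = 0.0540 for Pde6d, 0.0595 for Prph2, 0.157 for Sar1b and 0.159 for Gpr180 in edgeR).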

How the data were processed

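Poly-A RNA of whole retina was sequenced in 6 libraries. Per the labels' protocols, libraries were strand-specific TruSeq. Per the series' design text, reads were aligned by STAR (2.7.8a per the submitters' processing notes) to mm10 and HOMER counted unique tags in exons for a single isoform at each locus. Values in the deposited table are estimated counts, unnormalized per the file headers, in steps of 0.5, and were rounded to whole numbers for tests. No columns were left out (0). Library totals in the header were 19426580 to 26672412 tags. P-values measure the spread between these libraries, which may be technical.

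Genotypes were compared with edgeR (4.0.16, R 4.3.3): filterByExpr, TMM, quasi-likelihood test with robust dispersion by the method introduced in that major version, no covariate, Benjamini-Hochberg adjustment over 14685 genes, threshold 0.05. Alternatives used DESeq2 (1.42.0), limma-voom (3.58.1), other scalings and filters, a loess length trend per library (span 0.3) and each library left out; the earlier edgeR dispersion method, the letter of the column names as a block and levels relative to rod markers were chosen after seeing the data. Ratios within a library used counts plus 0.5. Scripts were tested on simulated data. The smallest member count, 3329, has an exact 95% Poisson interval of 3217 to 3444, for counting error only. Chi-square per degree of freedom was computed for each pair of libraries to look for duplicates, and the smallest was 9.97 (WT2A and WT2B).

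The members, gene lists, tests and alternatives were chosen with earlier results of these data known. Named were all members, the list genes past the threshold, Rd3 and Arr3, and the 5 genes most like Guca1a (symbols of Gm plus digits or ending in Rik left out). In the list of further recovery genes, 4 older symbols were matched through the annotation of the table.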

Additional observations from a re-analysis of the deposited data

How the results depend on the processing

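No paired analysis was possible because the columns of the count table do not carry the replicate numbers of the labels. Column names also end in a letter, A or B, that the labels do not explain. With that letter as a block, added after seeing the data, 2 members (Guca1a and Rcvrn), 4 activation and channel genes, 1 further recovery gene and 705 genes in all passed. Each number in the column names belongs to a single genotype, so its effect and that of genotype cannot be told apart.

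The number of genes past the threshold was 1 among the members, 3 among the activation and channel genes, 1 among the further recovery genes and 267 (1.82%) over all genes. In that order it was 0, 0, 0 and 1 with total-count scaling, and 0, 0, 0 and 1 with the length trend removed (4, 11, 9 and 4417, and 4, 10, 6 and 2898 at an unadjusted p under 0.05). With libraries of one name number summed it was 0, 0, 0 and 0 (4, 8, 3 and 1844 at an unadjusted p under 0.05), and 0 in all with an adjusted p under 0.01. DESeq2 gave 4, 10, 4 and 1754, and an unadjusted p under 0.05 gave 4, 10, 10 and 3807. Among the activation and channel genes 2 passed with RLE scaling, with upper-quartile scaling, without robust dispersion and with the earlier dispersion method of edgeR, which do not call Pde6g. Without robust dispersion 0 members passed (Guca1a adjusted p = 0.0509). With a library left out the counts ran from 0 to 4, 0 to 10, 0 to 8 and 0 to 2771. The cause was not tested.

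Guca1a, Guca1b, Rcvrn and Sag were lower and Gucy2e higher in all 20 alternatives, with Gucy2e at 0.00372 with the length trend removed. The changed thresholds and the fit without robust dispersion keep the log2 fold change of the main fit, so their signs were fixed in advance. The 5 members near 0 changed sign. Gucy2f was at -0.326 and Rgs9bp at -0.165 with the length trend removed, Gnb5 at -0.101 with libraries summed, and Grk1 at 0.106 with total-count scaling. Rgs9 was at 0.00606 with RLE, 0.0151 with upper-quartile and 0.186 with total-count scaling, 0.0046 with no filter, 0.00607 with DESeq2 and 0.00107 with libraries summed. With a library left out, Gucy2f ran from -0.155 to 0.185, Grk1 from -0.323 to 0.0823, Rgs9 from -0.241 to 0.211, Rgs9bp from -0.208 to 0.271 and Gnb5 from -0.150 to 0.459. The ratio of Guca1a to Guca1b differed by 0.0619 with the length trend removed. That of Rgs9 to Gnb5 differed by 0.0139 with libraries summed and by -0.283 to 0.0135 with a library left out.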
